A study of Mus musculus with 16 samples.

Results

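The cathepsins are the main proteases of the endosome and lysosome, and 10 of their genes were followed here in immune cells and carried-over tumour cells of B16 melanomas: Ctsa, Ctsb, Ctsc, Ctsd, Ctsh, Ctsk, Ctsl, Ctss, Ctsw and Ctsz. They were found by their symbols among the 32285 genes that each of the 8 deposited gene tables lists, and all 10 were found in each table. Most cathepsins are made as inactive precursors, are carried to the lysosome by mannose 6-phosphate receptors and become active as the compartment acidifies. Ctsb, Ctsc, Ctsh, Ctsk, Ctsl, Ctss, Ctsw and Ctsz belong to the papain-like cysteine proteases, Ctsd is an aspartic protease and Ctsa is a serine carboxypeptidase. In macrophages and dendritic cells they break down engulfed protein and help to load MHC class II, and in tumours macrophages are a well-known source of secreted cathepsins.

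C57BL/6J mice carried subcutaneous tumours grown from 1000000 control or B2m-null Bro4.1 B16 melanoma cells, and B2m is the light chain that MHC class I needs to reach the cell surface. They received 100 µg of an agonist antibody to CD40, a receptor that licenses antigen-presenting cells, or of a rat IgG2a isotype control, injected intraperitoneally on days 6, 9 and 12, and the tumours were harvested on day 14. The sample labels attach the genotype to the mouse, but the design text attaches it to the implanted cells, and the latter is followed here. The mice's age was not given in the sources used here. Cells were enriched on CD45 beads, marked with 1 hashtag antibody per mouse, pooled within a group and run on 10x Chromium 3' version 3 lanes. The groups were control isotype (5 mice in 2 pools), control CD40 (2 mice in 1 pool, run on 2 technical lanes), B2m-null isotype (5 mice in 2 pools) and B2m-null CD40 (4 mice in 2 pools). The control CD40 pool and its group cannot be told apart, every pool held mice of 1 group, and mice of a pool shared a lane. The labels list 3 hashtags for every pool, whereas 2 of the 8 hashtag tables hold 3 and 6 hold 2, so the numbers of mice are those of the hashtags in the tables, and whether further mice were pooled is not known.

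Total counts per lane ran from 46.0 to 99.3 in units of 1000000, in unique molecular identifiers (UMIs, counts of distinct captured RNA molecules), with medians of 1715 to 4225 per barcode, and the 2 control CD40 lanes had medians of 1715 and 2136. Hashtags tied 47.8% to 93.2% of a lane's barcodes to 1 mouse, and any pair of lanes shared at most 0.623% of the smaller lane's barcodes. Of 27 clusters, 23 were named from marker genes and 4 were left unnamed, and clusters of 1 kind were joined into gates. Per mouse, 281 to 6831 macrophages, 136 to 1064 monocytes, 23 to 689 conventional dendritic cells and 20 to 6730 CD8 T cells were summed. In melanoma cells B2m stood at 189 to 469 CPM (counts scaled to a library total of 1000000) in the 4 B2m-null lanes against 1087 to 2138 CPM in the 4 control lanes, so it was lower in every B2m-null lane.

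Stretches of 30 bases around the E-box core CACGTG are shown first. As background, this core lies within the sites that the lysosomal regulators of the MiT/TFE family are known to bind, and whether these genes share a regulator was not tested. The 250 bases before the RefSeq start (GRCm38.p6) were at hand for 7 of the 10 genes, in 8 windows, and only Ctsb, Ctsh and Ctsw had none. The core reads the same on both strands. It was found in 3 of the 8 windows, 1 for each of 3 genes, and in 6.02% of all 32851 promoter windows of the same length. Each stretch is written 5′ to 3′ on the gene's strand, with the core in capitals.
Ctsa, the second start, chr2:164833743-164833772, plus strand, core 12 bases before the start: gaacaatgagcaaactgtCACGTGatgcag
Ctsd, chr7:142388048-142388077, minus strand, core 245 bases before the start: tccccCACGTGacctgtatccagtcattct
Ctsd, chr7:142387908-142387937, minus strand, core 98 bases before the start: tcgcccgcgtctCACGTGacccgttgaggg
Ctsl, chr13:64370739-64370768, minus strand, core 236 bases before the start: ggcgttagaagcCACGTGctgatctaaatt
The first Ctsd stretch lies upstream of the annotated gene, and the other 3 overlap an exon of the gene in GENCODE M21. The windows of Ctsc, Ctsk, Ctss and Ctsz did not hold these letters.

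The genes lie on several chromosomes (GRCm38). Ctsk (chromosome 3, 95499256 to 95509362) and Ctss (chromosome 3, 95526786 to 95556403) are neighbours on the plus strand, 17423 bases apart. Ctsa (chromosome 2, 164832873 to 164841032, plus) and Ctsz (chromosome 2, 174427493 to 174439039, minus) are farther apart, as are Ctsc (chromosome 7, 88278085 to 88310888, plus) and Ctsd (chromosome 7, 142375911 to 142388038, minus). The others are Ctsh (chromosome 9, 90054152 to 90076089, plus), Ctsl (chromosome 13, 64359337 to 64370890, minus), Ctsb (chromosome 14, 63122462 to 63145923, plus) and Ctsw (chromosome 19, 5465043 to 5468507, minus). Genes on the opposite strand overlap exons of Ctsa (Neurl2 and Pltp), Ctsb (Fdft1), Ctsl (Gm47123), Ctsw (Fibp) and Ctsz (Nelfcd). Whether exons of those other genes lie in the shared stretches was not checked. Reads of such a pair cannot be told apart there if counting ignored strand, which the sources used here do not state. The annotation also places exons of Ctsc over Gm26522 on the opposite strand, and exons of Ctsd and Ctsl over Gm49369 and the pseudogene Gm49230 on their own strand, and Hmgb1-ps5 lies within Ctss outside its exons. These 4 are not among the genes listed in the count tables used here, and how reads in such shared stretches were assigned is not given in the sources used here.

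Levels by cell class were compared gene by gene, as counts summed per mouse and divided by that class's total (CPM), and the classes come from clustering on these same cells, so no test is attached. The SDs span mice of all 4 groups, so they also hold differences between groups, and they do not use that classes share mice. Among named classes macrophages stood highest for Ctsa, Ctsb, Ctsd, Ctsl, Ctss and Ctsz. Ctsb, a broad endopeptidase and dipeptidase, was at 4798 ± 679.6 CPM (SD, n = 16) in macrophages, 2469 ± 776 CPM (SD, n = 13) in neutrophils, 2002 ± 410.1 CPM (SD, n = 8) in plasmacytoid dendritic cells and 1855 ± 254 CPM (SD, n = 16) in monocytes. The macrophage level lay clear of the next class by more than the SDs, and the latter 3 overlapped one another. Ctsl, an endopeptidase that also degrades invariant chain, was at 2189 ± 429.8 CPM (SD, n = 16) in macrophages and 1580.0 ± 292 CPM (SD, n = 8) in plasmacytoid dendritic cells, which overlapped, against 850.2 ± 287 CPM (SD, n = 11) in fibroblasts and 501 ± 110.0 CPM (SD, n = 16) in monocytes.

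Ctss, the endopeptidase that trims invariant chain off MHC class II in myeloid cells and B cells, was at 3113 ± 1104 CPM (SD, n = 16) in macrophages and 2954 ± 500.5 CPM (SD, n = 16) in monocytes, which overlapped over the mice of all groups. It stepped down to 1416 ± 274 CPM (SD, n = 15) in cDC2 and 143 ± 34.8 CPM (SD, n = 16) in CD8 T cells. Ctsz, a carboxypeptidase, likewise overlapped between macrophages (1142 ± 149 CPM (SD, n = 16)) and monocytes (1089.5 ± 185 CPM (SD, n = 16)) over all groups. Ctsc, the dipeptidyl peptidase that activates granule serine proteases, stood at 1671 ± 419.7 CPM (SD, n = 16) in monocytes and 1396 ± 197 CPM (SD, n = 16) in macrophages, again overlapping over all groups. In B2m-null CD40 mice Ctsc ran from 1933 to 2579 CPM in monocytes and from 1288 to 1514 CPM in macrophages. Its ranges did not overlap in control CD40 either, but did in both isotype groups. Ctss and Ctsz lay higher in macrophages without overlap in control CD40, and their ranges overlapped in the other groups. Ctsh, an aminopeptidase, had its highest level in plasmacytoid dendritic cells (815 ± 122 CPM (SD, n = 8)), above macrophages (516 ± 61.8 CPM (SD, n = 16)), monocytes (502 ± 62.1 CPM (SD, n = 16)) and cDC2 (465 ± 84.2 CPM (SD, n = 15)), and the latter 3 overlapped.

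Ctsd, the lysosomal aspartic protease, was at 3269 ± 766 CPM (SD, n = 16) in macrophages, 1945 ± 729 CPM (SD, n = 13) in neutrophils and 1295 ± 348 CPM (SD, n = 16) in monocytes. It was also at 952 ± 244 CPM (SD, n = 15) in natural killer (NK) cells, 736 ± 182 CPM (SD, n = 8) in melanoma cells and 721 ± 91.1 CPM (SD, n = 16) in CD8 T cells. There its level over that of macrophages in the same mouse had a median of 22.3%. The medians were 15.5% for Ctsa, 9.43% for Ctsc, 4.33% for Ctsb and 1.46% for Ctsl. C1qa, C1qb, C1qc and Apoe, genes of macrophages, stood in CD8 T cells at medians of 1.60% to 1.95% of their macrophage level in the same mouse. The part of carried-over macrophage RNA in these values was not tested. Ctsa, the carboxypeptidase that protects lysosomal glycosidases, was at 449.5 ± 43.4 CPM (SD, n = 16) in macrophages, 335 ± 36.2 CPM (SD, n = 16) in monocytes and 71.9 ± 28.4 CPM (SD, n = 16) in CD8 T cells.

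Ctsw, a protease of cytotoxic lymphocytes, ran the other way, with 405 ± 97.0 CPM (SD, n = 15) in NK cells, 225 ± 88.6 CPM (SD, n = 16) in CD8 T cells and 123 ± 112 CPM (SD, n = 15) in CD4 T cells, each overlapping the next. In macrophages it stood at 2.14 ± 1.42 CPM (SD, n = 16). Ctsk, the collagenase of osteoclasts, was at 259 ± 73.5 CPM (SD, n = 11) in fibroblasts and 85.6 ± 65.2 CPM (SD, n = 16) in macrophages, and at 7492 CPM in the 1 mouse with enough cells of an unnamed cluster of 134 cells (cluster 25). Over 14 cell classes, the genes whose log2 levels ran most like the cathepsins' were Lipa for Ctsb (r = 0.984), Csf1r for Ctsc (r = 0.991), Milr1 for Ctss (r = 0.982), Ccl8 for Ctsl (r = 0.957), Mfsd12 for Ctsz (r = 0.955), Adap2 for Ctsh (r = 0.954), Rnf128 for Ctsd (r = 0.938), Slc35f6 for Ctsa (r = 0.957), AI427809 for Ctsk (r = 0.937) and Cd96 for Ctsw (r = 0.987). These correlations are descriptions over classes that share libraries and depth.

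**Figure D1:**
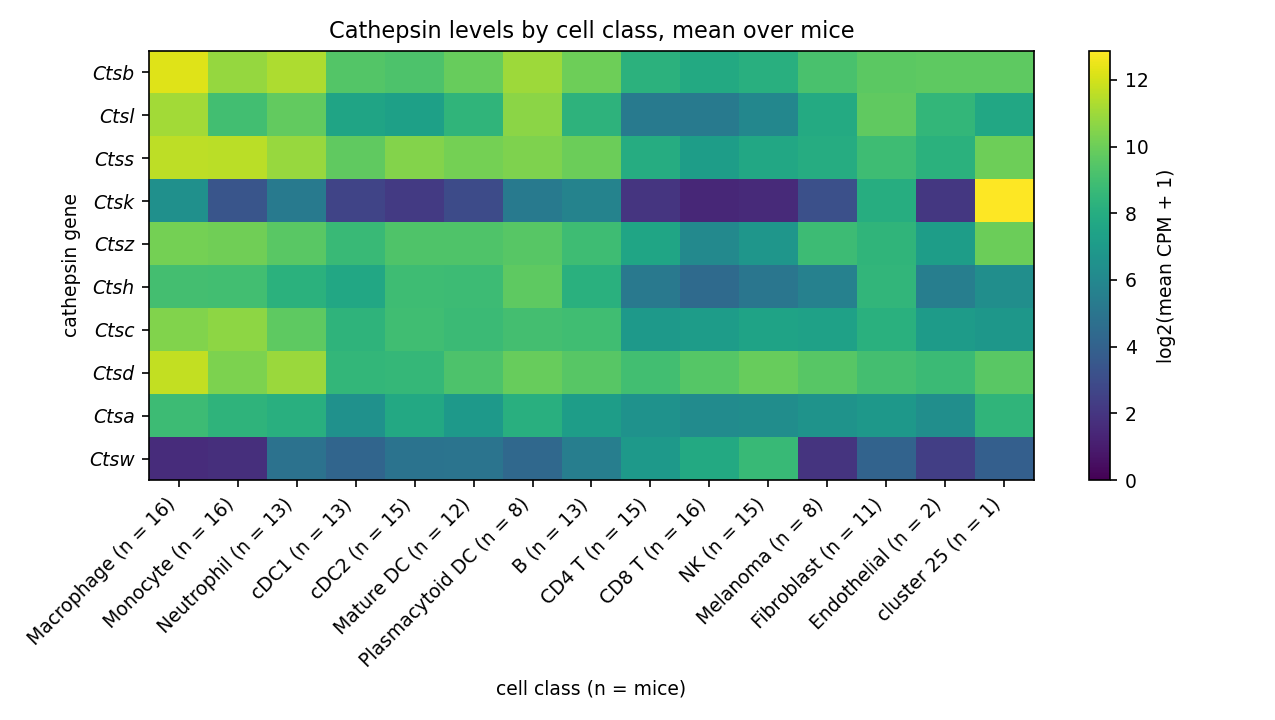
Level of each cathepsin gene (rows) in each cell class (columns), as log2 of the mean CPM over mice plus 1, with the number of mice after each class name. Colours are to be compared along a row: the 1 mouse of cluster 25 holds the highest Ctsk value, Ctsw is highest in NK cells, and the macrophage column is highest for Ctsb, Ctsl, Ctss, Ctsz, Ctsd and Ctsa.

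Under CD40 antibody Ctss, Ctsz and Ctsw rose in macrophages of both tumour types, Ctsa, Ctsb and Ctsd rose in control tumours, and Ctsc and Ctsk in B2m-null tumours. The rises of Ctsa and Ctsc depended on how libraries were scaled. With pools as the unit, Ctsz was lost in control tumours and Ctsw in B2m-null tumours, while Ctss was called in both. Ctsw lay at only 0.614 to 5.88 CPM in macrophages, and the part of lymphocyte RNA in it was not tested. In counts summed over a gate, more cells of a subset and more RNA per cell cannot be told apart. In control tumours 6 of the 10 genes rose and none fell (Ctsa, Ctsb, Ctsd, Ctss, Ctsw and Ctsz; adjusted p under 0.05 in edgeR's quasi-likelihood test over 12186 genes), where 22.4% of all genes tested passed in either direction. In B2m-null tumours 5 rose and none fell (Ctsc, Ctsk, Ctss, Ctsw and Ctsz), where 33.5% of all genes passed. The median log2 fold change of the 10 genes was 0.44 in control and 0.28 in B2m-null tumours, with medians over all genes of -0.01 in both. Together the 10 genes made up 1.61% ± 0.169 of macrophage UMIs in control isotype, 2.15% ± 0.107 in control CD40, 1.67% ± 0.120 in B2m-null isotype and 1.61% ± 0.176 in B2m-null CD40 (SD, n = 5, 2, 5 and 4).

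The scaling of libraries moved these values. TMM, the scaling used here, assumes that most genes do not change, and its factors averaged 1.03 in control isotype, 0.935 in control CD40, 1.07 in B2m-null isotype and 0.925 in B2m-null CD40 macrophages. With library totals alone, the scale of the CPM values, the median over all genes fell to -0.15 in control and -0.21 in B2m-null tumours, and that of the 10 cathepsins was 0.31 and 0.07. Ctsa was then not called in control tumours (0.22 ± 0.11, adjusted p = 0.13), where Ctsc fell (-0.36 ± 0.13, adjusted p = 0.048). In B2m-null tumours Ctsc was not called (0.15 ± 0.10, adjusted p = 0.25), while Ctsd fell (-0.50 ± 0.12, adjusted p = 0.0035), as did Ctsb (-0.26 ± 0.10, adjusted p = 0.043). The cathepsins called were 5 higher and 1 lower in control tumours, and 4 higher and 2 lower in B2m-null tumours. The rises of Ctss, Ctsw and Ctsz in both, of Ctsb and Ctsd in control and of Ctsk in B2m-null tumours passed under either scaling, as did the 3 different effects and the 4 differences under CD40 antibody.

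Over all genes the balance of calls moved with the scaling too. In macrophages 1469 genes rose and 1261 fell in control tumours with TMM, against 877 and 2371 with library totals, and in B2m-null tumours 2046 and 2033 became 993 and 3894. In monocytes 639 and 418 became 435 and 744 in control tumours, and 1670 and 1483 became 925 and 2701 in B2m-null tumours, with medians over all genes of -0.11 and -0.21. In B2m-null tumours 577 and 527 became 371 and 854 in dendritic cells (median -0.13), and 674 and 345 became 333 and 749 in CD8 T cells (median -0.14). Fold changes below are on the TMM scale unless library totals are named.

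Ctss stood at 4077, 2585, 2375, 3065 and 2994 in control isotype, 5683 and 5366 in control CD40, 2419.8, 2227, 2301, 2507 and 1676 in B2m-null isotype and 2979, 2648, 3501 and 3403 in B2m-null CD40 (CPM). Both control CD40 mice lay above every isotype mouse, and all 4 B2m-null CD40 mice lay above all 5 B2m-null isotype mice. The log2 fold change was 1.00 ± 0.18, adjusted p = 0.00068, in control tumours and 0.70 ± 0.15, adjusted p = 0.0016, in B2m-null tumours. Ctsz stood at 1149, 989.8, 1069, 1049 and 1252 in control isotype, 1381 and 1328 in control CD40, 1032, 975, 934, 1029 and 1080.1 in B2m-null isotype and 1091, 1220.2, 1376 and 1313 in B2m-null CD40 (CPM). The groups did not overlap in either tumour type, and Ctsz rose by 0.43 ± 0.12, adjusted p = 0.013, and 0.51 ± 0.10, adjusted p = 0.00058 (log2).

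Ctsd stood at 3142, 2522, 2366, 2765 and 3297 in control isotype, 4475 and 4363 in control CD40, 4460.0, 3107, 3625, 3186 and 4369 in B2m-null isotype and 2395, 2524, 3024 and 2684 in B2m-null CD40 (CPM). In control tumours the CD40 mice lay above all isotype mice, whereas in B2m-null tumours the CD40 mice lay below all 5 isotype mice. Ctsd rose by 0.79 ± 0.16, adjusted p = 0.0016 (log2), in control tumours, and its change in B2m-null tumours was -0.29 ± 0.13, adjusted p = 0.095. The difference between the 2 effects was -1.07 ± 0.20, adjusted p = 0.0029. Ctsb stood at 4958, 4105, 4130.2, 4342 and 4985 in control isotype, 6161 and 5679.5 in control CD40, 5506, 4766, 4825, 4856 and 5453 in B2m-null isotype and 4064, 3576, 4909 and 4458 in B2m-null CD40 (CPM), with the control CD40 mice above all control isotype mice and the B2m-null groups overlapping. It rose in control tumours (0.53 ± 0.13, adjusted p = 0.0078), with a change of -0.05 ± 0.11, adjusted p = 0.77, in B2m-null tumours and a difference of -0.58 ± 0.17, adjusted p = 0.026.

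For Ctsc the difference of effects had the opposite sign. Ctsc stood at 1755, 1613, 1589, 1489.7 and 1534 in control isotype, 1030.4 and 1457 in control CD40, 1352, 1419.9, 1164, 1252 and 1096 in B2m-null isotype and 1288, 1476, 1315 and 1514 in B2m-null CD40 (CPM). The control CD40 mice lay below all 5 control isotype mice and far from each other, and the B2m-null groups overlapped. Ctsc rose in B2m-null tumours (0.36 ± 0.11, adjusted p = 0.016), its change in control tumours was -0.21 ± 0.14, adjusted p = 0.28, and the difference was 0.58 ± 0.18, adjusted p = 0.032. Ctsa stood at 396, 392, 387, 422 and 488 CPM in control isotype and 489.5 and 484 CPM in control CD40, where 1 isotype mouse reached the CD40 range, and rose by 0.36 ± 0.11, adjusted p = 0.03. Its change in B2m-null tumours was 0.09 ± 0.09, adjusted p = 0.52. Neither Ctsl (0.14 ± 0.23 and 0.18 ± 0.18) nor Ctsh (-0.05 ± 0.14 and 0.19 ± 0.11) passed in either tumour type.

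Differences of the CD40 effect between tumour types passed for 3 of the 10 genes, Ctsb, Ctsc and Ctsd, where 17.8% of all genes passed. Under isotype, macrophages of B2m-null tumours were lower than those of control tumours in 2 genes, Ctsc (-0.40 ± 0.10, adjusted p = 0.024) and Ctss (-0.50 ± 0.14, adjusted p = 0.037), where 8.80% of all genes passed. Under CD40 antibody 4 genes were lower in B2m-null tumours, namely Ctsb (-0.46 ± 0.14, adjusted p = 0.037), Ctsd (-0.72 ± 0.16, adjusted p = 0.011), Ctss (-0.80 ± 0.19, adjusted p = 0.013) and Ctsw (-1.13 ± 0.35, adjusted p = 0.04), against 11.4% of all genes. The call on Ctsw lay near the threshold and was lost with DESeq2 (adjusted p = 0.069), with cells of at least 1000 UMIs (adjusted p = 0.055) and with mixed barcodes, those with any UMI of Cd3d, Cd3e, Cd3g or Trac, removed (adjusted p = 0.063), in edgeR for the last 2. With library totals Ctsd was also higher in B2m-null tumours under isotype (0.41 ± 0.12, adjusted p = 0.033). These comparisons share their groups with the CD40 effects and are not independent of them.

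Ctsw in macrophages stood at 2.62, 2.65, 2.08, 0.996 and 0.904 in control isotype, 4.36 and 5.88 in control CD40, 0.614, 1.02, 1.81, 1.11 and 1.19 in B2m-null isotype and 1.23, 2.69, 3.17 and 1.86 in B2m-null CD40 (CPM). Its log2 fold changes were 1.83 ± 0.34, adjusted p = 0.0011, in control and 1.36 ± 0.36, adjusted p = 0.0073, in B2m-null tumours. The macrophage level was a median of 0.749% of the CD8 T cell level in the same mouse, and the T cell genes Cd3d, Cd3e, Cd3g and Trac stood at medians of 0.609% to 0.681%. The summed level of these 4 genes in macrophages was 8.51 to 20.2 CPM in control isotype, 25.9 to 38.1 CPM in control CD40, 8.82 to 14.7 CPM in B2m-null isotype and 16.7 to 30.7 CPM in B2m-null CD40. As a share of the CD8 T cell level, Ctsw ran from 0.479% to 1.90% in control isotype and the sum of the 4 genes from 0.323% to 0.759%. In control CD40 the shares were 1.37% to 1.75% for Ctsw and 0.904% to 1.27% for the sum. In B2m-null isotype they were 0.368% to 0.837% and 0.344% to 0.707%, and in B2m-null CD40 0.465% to 1.18% and 0.433% to 0.885%. The Ctsw shares lay above those of the sum without overlap in control CD40, and the ranges overlapped in the other 3 groups. With mixed barcodes removed the mean over mice went from 2.14 ± 1.42 to 1.29 ± 1.06 CPM (SD, n = 16), and Ctsw rose in control (1.76 ± 0.43, adjusted p = 0.0074) and in B2m-null tumours (1.92 ± 0.51, adjusted p = 0.0074). The part of T cell or NK cell RNA carried over into the other barcodes was not tested.

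The calls differ in how far they rest on single pools or mice. With the pool in place of the mouse as the unit, the 2 technical lanes of control CD40 were summed, so that group was 1 of 7 pools and was assumed to vary like the others. In that fit Ctsa, Ctsb and Ctsz were lost in control tumours, and Ctsc and Ctsw were lost in B2m-null tumours. Both calls under isotype were lost too. Of Ctss, Ctsz and Ctsw, only Ctss was then called in both tumour types. None of the 4 calls between tumour types under CD40 antibody and none of the 3 different effects was called with the pool as the unit, where Ctsk was called in their place in both comparisons. Without control isotype pool 1, 3 genes were called in control tumours (Ctsd, Ctss and Ctsw), as without control CD40 mouse 1, and without control CD40 mouse 2 the 3 called were Ctsd, Ctss and a lower Ctsc. Ctsa and Ctsz were also lost without the first control CD40 lane. In B2m-null tumours 2 genes, Ctsk and Ctsz, were called without B2m-null CD40 pool 2, and Ctsc was also lost without B2m-null isotype pool 2. The lower Ctsc and Ctss under isotype were both lost without either B2m-null isotype pool or control isotype pool 1, and 1 was left without control isotype pool 2. Under CD40 antibody 0 were called without B2m-null CD40 pool 1 or without either control CD40 mouse, and 2 without the first control CD40 lane. Ctsb was also lost there without either control isotype pool, and Ctsw without B2m-null CD40 pool 2 or the second lane. The different effect on Ctsd was called in every fit that left out 1 pool, lane or mouse, though not with the pool as the unit. It was the only one of 3 called without control isotype pool 1 or control CD40 mouse 1. That on Ctsb was also lost without B2m-null CD40 pool 1 or control CD40 mouse 2. That on Ctsc was lost without B2m-null CD40 pool 2 or B2m-null isotype pool 1.

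**Figure D2:**
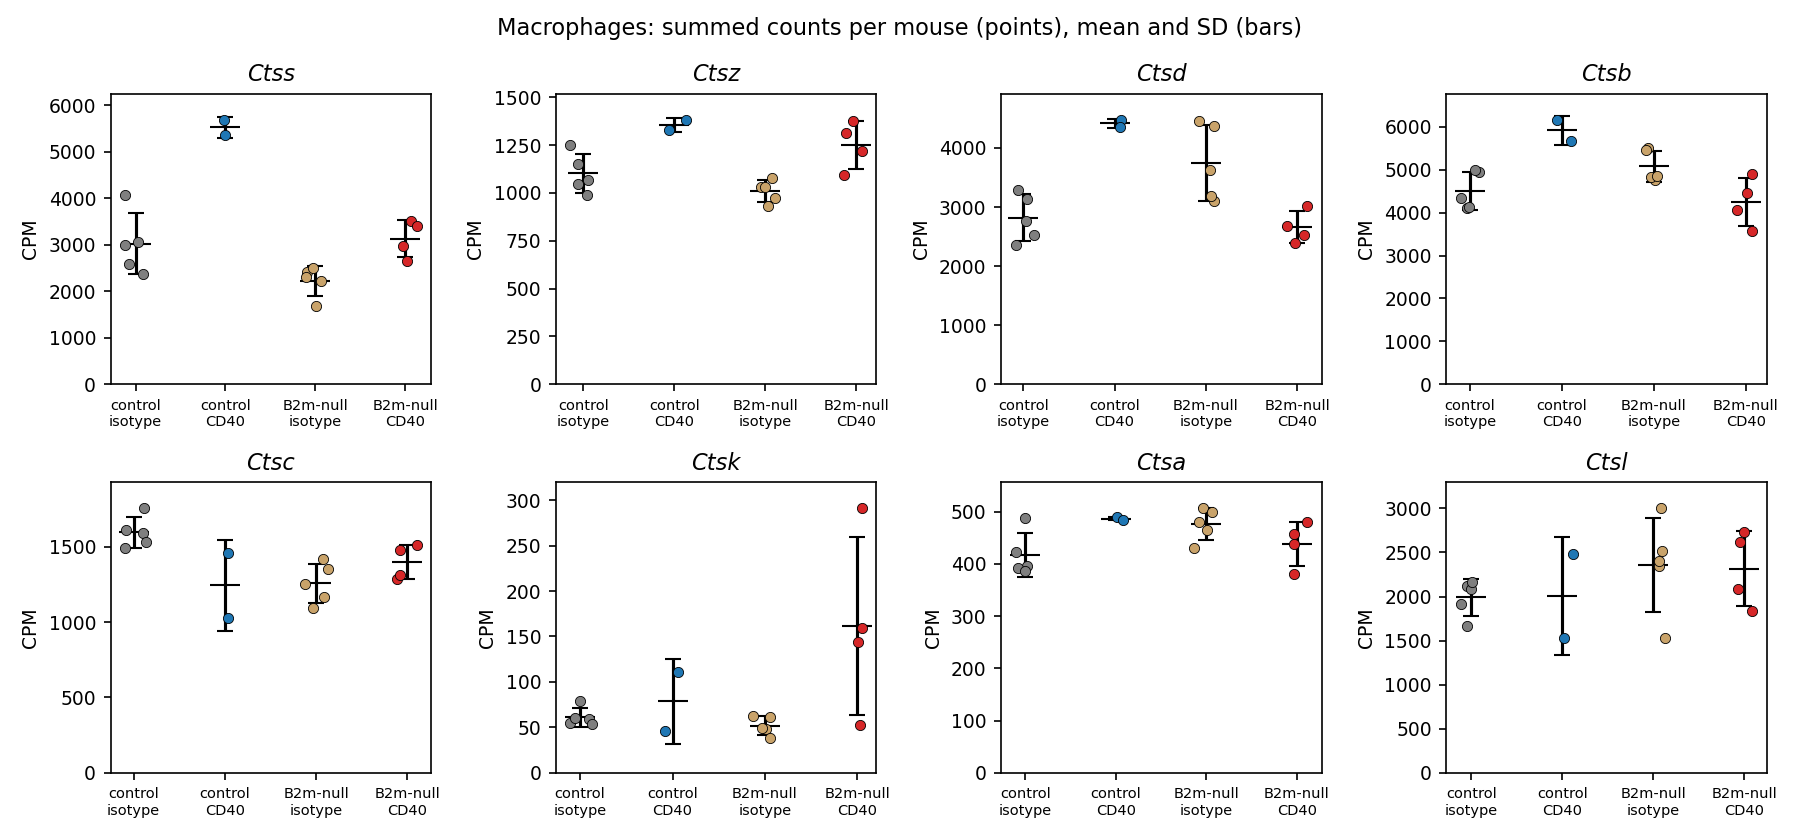
Macrophage levels of 8 cathepsin genes in CPM, 1 point per mouse in the 4 groups, with the mean as a horizontal line and the SD as bars (n = 5, 2, 5 and 4). Both control CD40 mice sit above all control isotype mice for Ctss, Ctsz, Ctsd and Ctsb, and the 4 B2m-null CD40 mice sit below all B2m-null isotype mice for Ctsd.

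**Figure D3:**
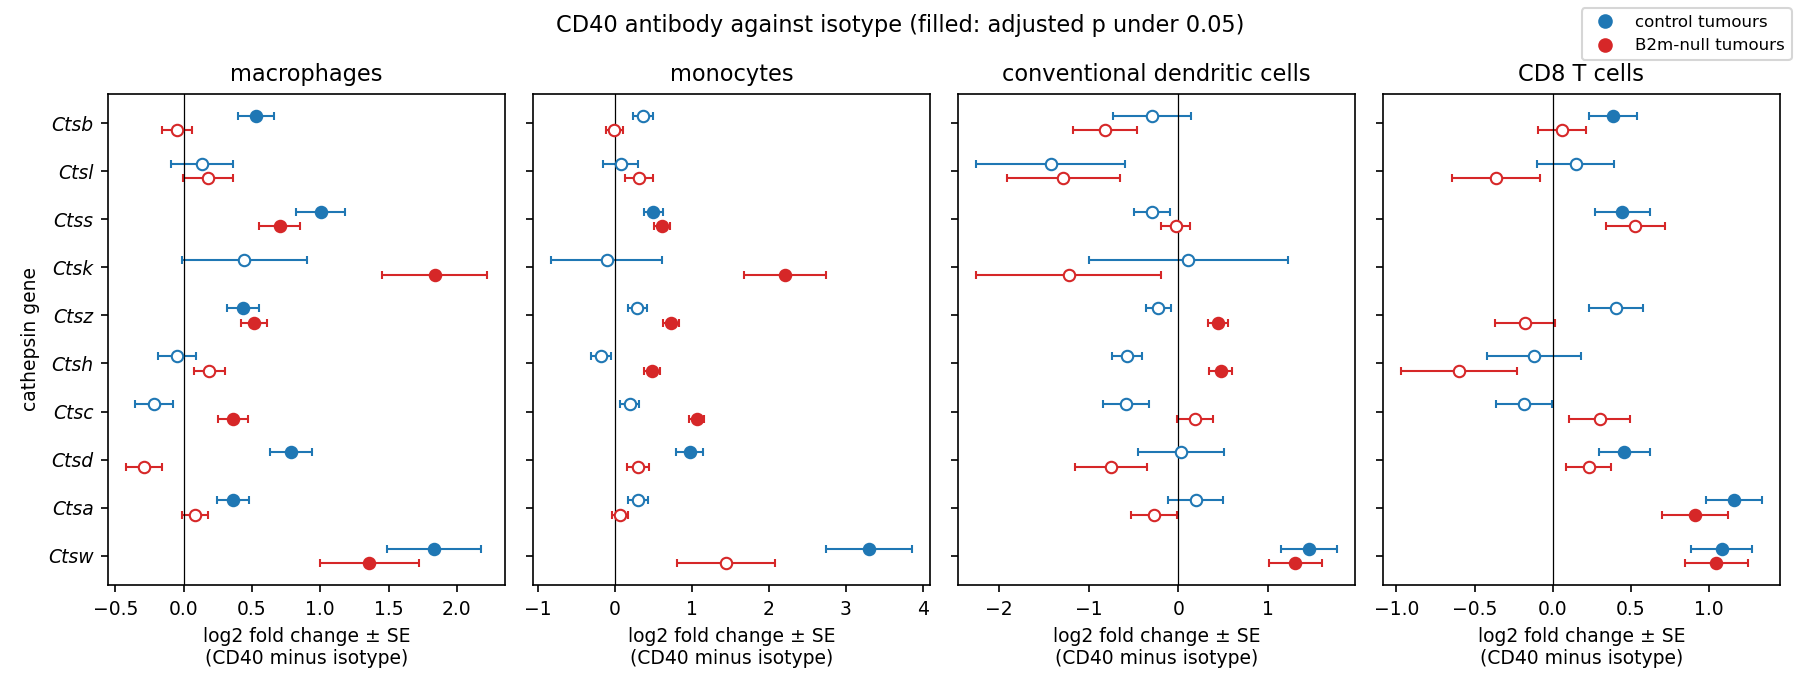
Log2 fold change of CD40 antibody against isotype with its standard error for each cathepsin gene in 4 gates, for control and B2m-null tumours. Filled points passed an adjusted p of 0.05, and Ctsd in macrophages rose in control tumours (0.79) but not in B2m-null tumours (-0.29), where it fell with library totals (-0.50).

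Macrophages fell into 6 clusters that carried different cathepsins. Ctss was at 5609.5 ± 1530.1 CPM (SD, n = 5) in control isotype mice in cluster 3, led by Gpnmb, Fabp5 and H2-M2, against 2785 ± 337 CPM in cluster 2, led by Vcam1 and C1qa, and 2218 ± 254 CPM in cluster 4, led by Lyve1 and Cd209f. Ctsl was at 4404 ± 868 CPM in cluster 0, led by Mmp12 and Arg1, and 559 ± 27.8 CPM in cluster 2, and Ctsk was at 151 ± 16.8 and 8.32 ± 1.90 CPM in the same clusters. Ctsc ran the opposite way, with 925 ± 104 CPM in cluster 0 and 2113 ± 129 CPM in cluster 2. The 10 cathepsins were left out of the clustering, and these differences are given as a description, with no test.

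The make-up of the macrophage gate moved with the groups. Cluster 3 held 9.3% of macrophages in control isotype, 50.6% in control CD40, 3.9% in B2m-null isotype and 14.1% in B2m-null CD40 (means over mice), and in each group its cells had higher mean Ctss and Ctsd levels than those of the other 5 clusters. Fits within single clusters were run beside the gate's changes. Within cluster 0, Ctss rose in control tumours (0.65 ± 0.14, adjusted p = 0.0017) and in B2m-null tumours (0.57 ± 0.12, adjusted p = 0.00084), and so did Ctsz (0.52 ± 0.13 and 0.58 ± 0.11). Ctsd and Ctsa rose within cluster 0 in control tumours (0.77 ± 0.16 and 0.61 ± 0.13), and Ctsc in B2m-null tumours (0.74 ± 0.12, adjusted p = 9.9e-05).

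Within cluster 2 the Ctss changes were -0.06 ± 0.15 and -0.06 ± 0.12, opposite in sign to the whole gate, and 0 of 9 cathepsins were called in control tumours by edgeR, with 2 at an unadjusted p under 0.05 (DESeq2 was run on whole gates). The share of all genes called within this cluster is not given here, so the count cannot be set against it. There Ctsd and Ctsb fell in B2m-null tumours (-0.64 ± 0.12, adjusted p = 0.00027, and -0.34 ± 0.12, adjusted p = 0.036), while Ctsl rose (0.56 ± 0.10, adjusted p = 0.0003). Within cluster 3, Ctsc and Ctsz rose in B2m-null tumours (0.91 ± 0.18 and 0.51 ± 0.14), and Ctsh fell in control tumours (-0.53 ± 0.16, adjusted p = 0.026). There Ctss was not called in control tumours (0.54 ± 0.28, adjusted p = 0.24) or in B2m-null tumours (0.63 ± 0.24, adjusted p = 0.11). Nor were Ctsd (0.60 ± 0.23, adjusted p = 0.089), Ctsb (0.31 ± 0.17, adjusted p = 0.26) or Ctsa (0.12 ± 0.16, adjusted p = 0.7) in control tumours. Ctss in cluster 4 was at 2218 ± 254 in control isotype, 5142 ± 347 in control CD40, 1903 ± 238 in B2m-null isotype and 3086 ± 234 in B2m-null CD40 (CPM, mean ± SD over mice). Of the macrophage clusters, 0, 2 and 3 were fitted, the last with 4 B2m-null isotype mice. Ctsc was the 1 cathepsin called in all 3, each time in B2m-null tumours.

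**Figure D4:**
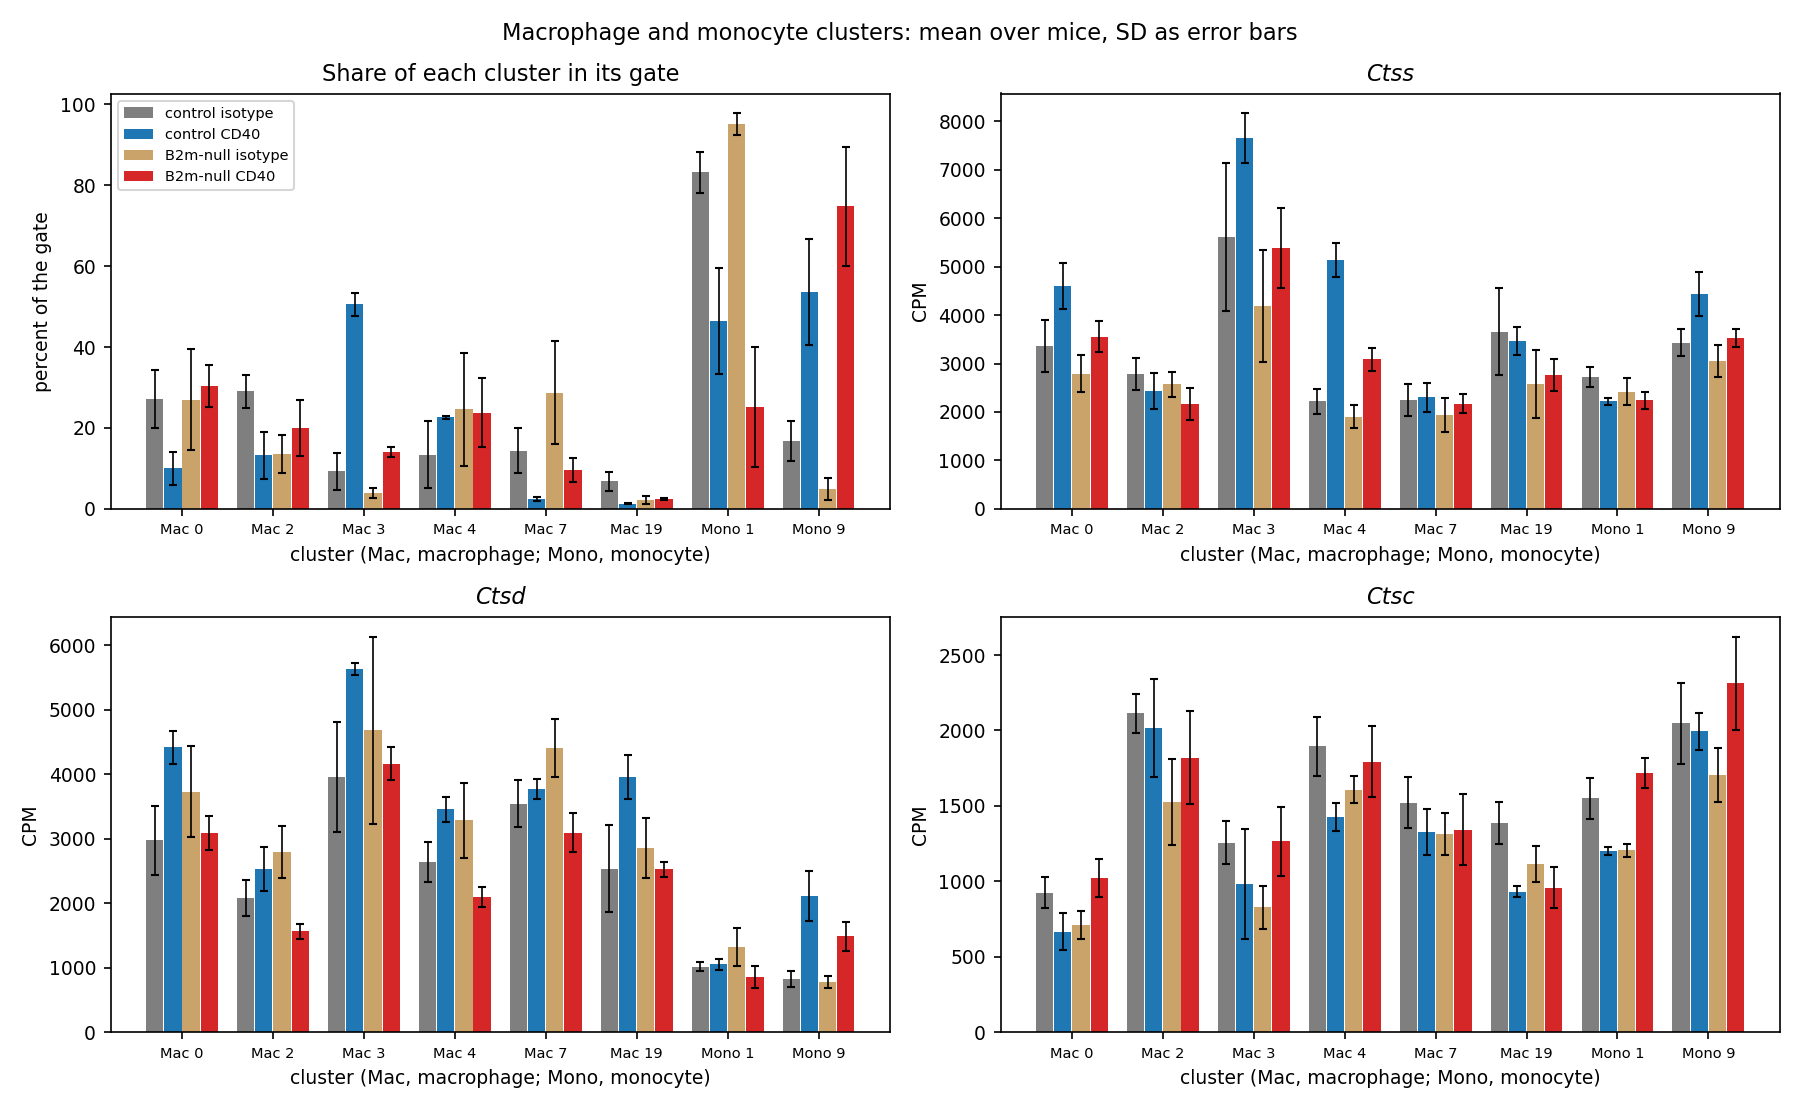
Share of each macrophage and monocyte cluster in its gate (percent) and the levels of Ctss, Ctsd and Ctsc in each cluster (CPM), as means over mice with the SD as error bars, in the 4 groups. Cluster 3 makes up 50.6% of macrophages in control CD40 and 3.9% in B2m-null isotype, and Ctss in cluster 4 is 5142 CPM in control CD40 against 2218 CPM in control isotype.

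Ctsk in macrophages stood at 55.0, 60.0, 79.1, 58.9 and 53.2 in control isotype, 111 and 45.7 in control CD40, 48.3, 38.3, 62.4, 61.4 and 49.1 in B2m-null isotype and 52.7, 291, 159 and 144 in B2m-null CD40 (CPM). In B2m-null tumours 3 of the 4 CD40 mice lay above all isotype mice and 1 lay among them, and Ctsk rose by 1.84 ± 0.38, adjusted p = 0.0029 (log2). The control CD40 mice straddled the isotype range, with a change of 0.45 ± 0.46, adjusted p = 0.52. The call in B2m-null tumours was lost without B2m-null isotype pool 1. The unnamed cluster 25, led by Mmp9, Acp5, Ocstamp and Dcstamp, genes of osteoclasts and cell fusion, is not part of the macrophage gate. It held 82 and 22 cells in the B2m-null CD40 lanes, 10 and 16 in the control CD40 lanes, 1 and 2 in the B2m-null isotype lanes, and 0 and 1 in the control isotype lanes.

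These few cells carried 55.2% and 35.3% of all Ctsk counts of the B2m-null CD40 lanes and 41.7% and 38.3% of those of the control CD40 lanes, at 7444, 11884, 14168 and 8926 CPM. In B2m-null isotype lanes the shares were 0 and 3.05%. Ctsk was also counted in lymphocytes of the 4 B2m-null CD40 mice, at 0.959 to 9.63 CPM in CD8 T cells and 4.74 to 359 CPM in B cells. The macrophages of the B2m-null CD40 lanes held 31.3% and 57.3% of the lanes' Ctsk counts, and what Ctsk RNA from cluster 25 adds to the macrophage value was not tested.

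Monocytes under CD40 antibody gained Ctsc in B2m-null tumours and Ctsd in control tumours. The macrophage genes C1qa, C1qb, C1qc and Apoe stood in this gate at medians of 33.3% to 46.0% of their macrophage level in the same mouse. The part of macrophage RNA or macrophage-like cells in the monocyte values was not tested. In control tumours 3 of the 10 genes rose (Ctsd, Ctss and Ctsw), where 10.9% of all genes passed, and in B2m-null tumours 5 rose (Ctsc, Ctsh, Ctsk, Ctss and Ctsz), where 32.6% passed. None fell in either. The median log2 fold change of the 10 genes was 0.30 and 0.55, against -0.001 and 0.0018 over all genes. Ctsc stood at 1462, 1639, 1814, 1537 and 1720.1 in control isotype, 1594 and 1898 in control CD40, 1286, 1222, 1163, 1279 and 1222 in B2m-null isotype and 2414, 2579, 1933 and 1974 in B2m-null CD40 (CPM). All 4 B2m-null CD40 mice lay above every other mouse of the study, and the B2m-null isotype mice lay below all others. Ctsc rose by 1.06 ± 0.10, adjusted p = 2.3e-08 (log2), in B2m-null tumours, its change in control tumours was 0.20 ± 0.13, adjusted p = 0.36, and the difference was 0.87 ± 0.17, adjusted p = 0.0016.

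Ctsz stood at 1090.1, 953, 983, 925 and 1051 in control isotype, 1109 and 1177 in control CD40, 927, 989, 816, 1032 and 962 in B2m-null isotype and 1213, 1469, 1362 and 1374 in B2m-null CD40 (CPM). In B2m-null tumours the groups did not overlap, and Ctsz rose by 0.73 ± 0.10, adjusted p = 3.7e-06. Ctss stood at 2844, 2802, 2577, 3142 and 2872 CPM in control isotype and 3268 and 4235 CPM in control CD40 (0.50 ± 0.12, adjusted p = 0.0078). In B2m-null tumours it stood at 2619, 2734, 2689.9, 2260.2 and 2144 CPM under isotype and 3422, 3207, 3257 and 3186 CPM under CD40 antibody (0.62 ± 0.10, adjusted p = 3.5e-05), with no overlap in either. Ctsd stood at 919, 975, 942, 1018 and 1086 in control isotype, 1509 and 2109 in control CD40, 1646, 1497, 1347, 862 and 1246 in B2m-null isotype and 1518, 1708, 1222 and 1113 in B2m-null CD40 (CPM). Ctsd rose in control tumours (0.98 ± 0.17, adjusted p = 0.00054) and its groups overlapped in B2m-null tumours (0.30 ± 0.15, adjusted p = 0.12).

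Ctsh stood at 457, 473, 449, 420.3 and 487 CPM in B2m-null isotype and 507, 504, 616 and 574 CPM in B2m-null CD40, and rose (0.49 ± 0.10, adjusted p = 0.00066). In control tumours the CD40 mice, at 405 and 474 CPM, lay below all isotype mice, at 520.3, 479, 494, 614 and 563 CPM, with a change of -0.17 ± 0.13, adjusted p = 0.44. The difference passed for Ctsh (0.66 ± 0.17, adjusted p = 0.011) and Ctsc, 2 of 10 genes against 10.9% of all genes. With library totals it passed for Ctsd as well (-0.79 ± 0.25, adjusted p = 0.04), and the same genes were called in the CD40 effects. Ctsk in B2m-null CD40 stood at 31.9, 35.2, 7.41 and 8.33 CPM, with the first 2 values from 1 pool and the last 2 from the other, and at most 6.54 CPM in B2m-null isotype (2.21 ± 0.53, adjusted p = 0.0049). These pools held 82 and 22 cells of cluster 25, and the part of its RNA was not tested. Ctsw stood at 7.35 and 8.82 CPM in control CD40 and at most 1.45 CPM in control isotype (3.30 ± 0.56, adjusted p = 0.00018), where the 4 summed T cell genes ran from 17.1 to 38.8 CPM and from 4.30 to 16.3 CPM. In the 2 control CD40 mice Ctsw was 2.31% and 2.62% of the CD8 T cell level, against 0.599% and 1.29% for that sum, and the part of carried-over lymphocyte RNA was not tested.

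Between tumour types, Ctsc was lower in B2m-null monocytes under isotype (-0.44 ± 0.10, adjusted p = 0.0082), 1 of 10 genes against 3.49% of all genes. Under CD40 antibody Ctsw was lower (-1.83 ± 0.48, adjusted p = 0.023), 1 of 10 against 6.48%. With the pool as the unit, and control CD40 a single pool, both calls and the different effects on Ctsc and Ctsh were lost. So were the rises of Ctsk in B2m-null tumours and of Ctss in control tumours. Without control CD40 mouse 2 no cathepsin was called in control monocytes (0 by edgeR, which called 3 in the full set), and the lower Ctsc under isotype was lost without B2m-null isotype pool 1 or control isotype pool 1. The rise of Ctsk in B2m-null tumours was lost without B2m-null CD40 pool 1 or either B2m-null isotype pool. Ctsh was lost without B2m-null CD40 pool 2, as was its different effect, which was also lost without control CD40 mouse 1. Ctss in control tumours was lost without control isotype pool 1 and Ctsw without control CD40 mouse 2. Without either control CD40 lane Ctsw did not pass the low-count filter and was not tested. Under CD40 antibody 0 were called without the second control CD40 lane or either control CD40 mouse. Ctsw was lost there without B2m-null CD40 pool 1, when Ctsh was called, as it was without the first control CD40 lane. The counts were 2 without B2m-null isotype pool 1, and 3 without B2m-null CD40 pool 2 or B2m-null isotype pool 2. Without B2m-null isotype pool 2 the counts were also 2 under isotype and 5 for the difference of effects.

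The monocyte gate joined 2 clusters, and the Nos2-expressing cluster 9 made up 16.8% of it in control isotype, 53.6% in control CD40, 4.9% in B2m-null isotype and 74.8% in B2m-null CD40. Within the Chil3 and Vcan cluster 1, Ctsc rose in B2m-null tumours (0.62 ± 0.10, adjusted p = 7.5e-05), as it did within cluster 9 (0.58 ± 0.14, adjusted p = 0.013, with 2 B2m-null isotype mice). Ctsd rose within cluster 9 in control tumours (1.46 ± 0.14, adjusted p = 1.5e-08) and in B2m-null tumours (1.08 ± 0.17, adjusted p = 0.0003), while it fell within cluster 1 of B2m-null tumours (-0.50 ± 0.14, adjusted p = 0.015). Within cluster 9 Ctsd was at 830.1 ± 122 in control isotype, 2114 ± 394 in control CD40, 777 ± 96.2 in B2m-null isotype and 1489 ± 227 in B2m-null CD40 (CPM, mean ± SD over mice). Ctss rose within cluster 9 of control tumours (0.49 ± 0.12, adjusted p = 0.0063) and changed by -0.25 ± 0.12 within cluster 1, and Ctsz was not called within either cluster.

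Conventional dendritic cells (cDC1, cDC2 and mature cells) had higher Ctsh under CD40 antibody in B2m-null tumours, an effect that differed from that in control tumours. In control tumours 1 of the 10 genes, Ctsw, was called, where 3.05% of all genes passed, and in B2m-null tumours 3 rose (Ctsh, Ctsw and Ctsz), where 11.3% passed. The median log2 fold change of the 10 genes was -0.26 and -0.15, against -0.02 and -0.02 over all genes. Ctsh stood at 312, 383, 400.1, 447 and 404 in control isotype, 258 and 254 in control CD40, 394, 328, 314, 354 and 466 in B2m-null isotype and 461, 460.2, 481 and 527 in B2m-null CD40 (CPM). The control CD40 mice lay below all control isotype mice, and the B2m-null CD40 mice overlapped with 1 isotype mouse only. Ctsh rose in B2m-null tumours (0.47 ± 0.13, adjusted p = 0.019), its change in control tumours was -0.57 ± 0.17, adjusted p = 0.065, and the difference was 1.04 ± 0.21, adjusted p = 0.006. With library totals Ctsh fell in control tumours (-0.61 ± 0.16, adjusted p = 0.03).

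Ctsz stood at 450.4, 564, 653, 581 and 596 in control isotype, 451 and 495 in control CD40, 609, 465, 539.9, 575 and 588 in B2m-null isotype and 647, 827, 713 and 680.4 in B2m-null CD40 (CPM). B2m-null CD40 mice lay above all B2m-null isotype mice, and Ctsz rose by 0.44 ± 0.11, adjusted p = 0.013, with a change of -0.22 ± 0.14 in control tumours and a difference of 0.66 ± 0.18, adjusted p = 0.039. The difference passed for these 2 genes of 10, against 4.25% of all genes. Under CD40 antibody the same 2 were higher in B2m-null tumours (Ctsh 0.96 ± 0.18, adjusted p = 0.006, and Ctsz 0.61 ± 0.15, adjusted p = 0.049), against 1.16%. Under isotype 0 of 10 were called, none at an unadjusted p under 0.05 and 0 by DESeq2, where 1.47% of all genes passed in edgeR. The make-up of the gate differed between groups. cDC1, with the lowest Ctsh of the 3 subsets (209 ± 38.7 CPM (SD, n = 13)), made up 29.4% of the gate in control isotype, 34.3% in control CD40, 25.8% in B2m-null isotype and 19.2% in B2m-null CD40 (means over mice). Mature cells, at 456 ± 111 CPM (SD, n = 12), made up 35.9%, 17.5%, 34.9% and 34.5% in the same order. Within the cDC2 cluster Ctsh rose in B2m-null tumours (0.51 ± 0.14, adjusted p = 0.018, with 3 B2m-null CD40 mice), and there Ctss fell in control tumours (-0.57 ± 0.15, adjusted p = 0.036).

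Ctsw in this gate stood at 31.7, 24.1, 26.5, 14.96 and 19.6 in control isotype, 37.4 and 70.7 in control CD40, 16.0, 10.5, 19.6, 22.6 and 17.4 in B2m-null isotype and 21.4, 70.2, 47.9 and 35.6 in B2m-null CD40 (CPM), and rose by 1.46 ± 0.31, adjusted p = 0.008, and 1.31 ± 0.30, adjusted p = 0.0078. Its median level was 11.2% of that of CD8 T cells in the same mouse, where Cd3d, Cd3e, Cd3g and Trac stood at 12.5% to 16.1%. The 4 summed genes ran from 282 to 606 CPM in control isotype, 526 to 699.7 CPM in control CD40, 168 to 353 CPM in B2m-null isotype and 383 to 624 CPM in B2m-null CD40. With barcodes of mixed T cell and myeloid content removed, which took 21.3% of the gate, 0 of 9 cathepsins were called in control tumours by edgeR (2 at an unadjusted p under 0.05), and Ctsh and Ctsz were called in B2m-null tumours. The shares of all genes called after that removal are not given here. The differences between tumour types under CD40 antibody were then lost for Ctsh (0.85 ± 0.20, adjusted p = 0.064) and Ctsz (0.46 ± 0.17, adjusted p = 0.23), as was the different effect on Ctsz (0.57 ± 0.20, adjusted p = 0.14), while that on Ctsh was called (0.98 ± 0.24, adjusted p = 0.03). That removal took the mean Ctsw level of the gate from 30.4 ± 18.3 CPM (SD, n = 16) to 5.36 ± 2.75 CPM (SD, n = 15), with 9.40 CPM as the highest mouse. Ctsw then did not pass the low-count filter, so its rises could not be tested without those barcodes. Ctsb, Ctsl and Ctsd varied widely between mice, as did the summed C1qa, C1qb, C1qc and Apoe (71.6 to 2596 CPM), and none was called. The part of macrophage RNA in them was not tested.

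The dendritic calls rested on few animals. With the pool as the unit, and control CD40 a single pool, the rises of Ctsh (0.40 ± 0.17, adjusted p = 0.25) and Ctsz (0.38 ± 0.16, adjusted p = 0.23) in B2m-null tumours were lost. So were both differences under CD40 antibody and both different effects. Ctsw was called in each tumour type, and so was Ctsl, which was not called with the mouse as the unit. The direction of the Ctsl change in that fit is not given here. Without B2m-null CD40 pool 2, or without B2m-null isotype pool 1, 0 genes were called in B2m-null tumours. The 2 differences under CD40 antibody were both lost without B2m-null CD40 pool 2, the second control CD40 lane or either control CD40 mouse, and Ctsz alone was lost without either control isotype pool. The different effects were both lost without either control CD40 mouse, and that on Ctsz also without B2m-null CD40 pool 2, B2m-null isotype pool 1, the second control CD40 lane or either control isotype pool. In control tumours Ctsw was lost without control CD40 mouse 2, when 0 genes were called, and without the first control CD40 lane, and 2 genes were called without B2m-null CD40 pool 1 or either B2m-null isotype pool.

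CD8 T cells gained Ctsw and Ctsa under CD40 antibody in both tumour types. With the pool as the unit both were lost in B2m-null tumours. Of 9 cathepsins tested (Ctsk did not pass the low-count filter), 5 rose in control tumours (Ctsa, Ctsb, Ctsd, Ctss and Ctsw), where 39.6% of all genes passed, and 2 in B2m-null tumours (Ctsa and Ctsw), where 10.9% passed. The median log2 fold change of the 9 genes was 0.40 and 0.23, against -0.02 and 0.03 over all genes. With library totals the median of the 9 genes in B2m-null tumours was 2.7e-05, and the same 2 were called. Ctsw stood at 172, 139, 142, 141 and 189 in control isotype, 318 and 337 in control CD40, 167, 175, 216, 165 and 193 in B2m-null isotype and 219.6, 228, 399 and 399 in B2m-null CD40 (CPM). CD40 mice lay above all isotype mice in both tumour types, and the first 2 B2m-null CD40 values, from 1 pool, lay far below the last 2, from the other. Ctsw rose by 1.08 ± 0.20, adjusted p = 0.0001, and 1.05 ± 0.20, adjusted p = 0.0015 (log2).

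Ctsa stood at 46.6, 52.5, 54.9, 55.3 and 48.8 in control isotype, 99.5 and 127 in control CD40, 86.2, 105, 33.2, 52.0 and 36.7 in B2m-null isotype and 73.2, 83.2, 109 and 88.2 in B2m-null CD40 (CPM). The control groups did not overlap, whereas 2 of the 5 B2m-null isotype mice reached into the CD40 range. These 2 mice had 74 and 22 CD8 T cells, so their values rest on few counts. Ctsa rose by 1.16 ± 0.18, adjusted p = 1.0e-05, and 0.91 ± 0.21, adjusted p = 0.0061. Ctsd stood at 653, 607, 632, 669 and 753 CPM in control isotype and 903 and 894 CPM in control CD40, without overlap, and rose by 0.46 ± 0.16, adjusted p = 0.026, with 0.23 ± 0.14, adjusted p = 0.33, in B2m-null tumours. The smaller rises of Ctsb (0.39 ± 0.15, adjusted p = 0.046) and Ctss (0.45 ± 0.17, adjusted p = 0.041) in control tumours came at levels of 256 and 267 and 165 and 213 CPM in the CD40 mice, and the summed C1q and Apoe level in this gate was 107 to 223 CPM in control isotype and 132 to 192 CPM in control CD40. Both calls lay near the threshold. Ctsb was lost with DESeq2 (adjusted p = 0.051), and in edgeR with RLE size factors (0.054), no low-count filter (0.0501) and library totals (0.064). Ctss was lost with DESeq2 (adjusted p = 0.062) and with cells of at least 1000 UMIs in edgeR (0.1). What carried-over macrophage RNA adds to Ctsb and Ctss was not tested.

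No cathepsin passed in CD8 T cells between tumour types under isotype (0 of 9, 3 at an unadjusted p under 0.05, against 0.171% of all genes) or under CD40 antibody (0 of 9, none at an unadjusted p under 0.05, against 11.0%), and no difference between effects passed (0 of 9, 1 unadjusted, against 9.71%), by edgeR, and DESeq2 called 0 in each. The Ctsw difference between effects was -0.03 ± 0.29. Cluster 10, led by Ifng, Gzmf and Rgs16, made up 73.9% of the gate in control isotype, 19% in control CD40, 58.0% in B2m-null isotype and 38.8% in B2m-null CD40. Cluster 8 made up 5.77%, 27.0%, 9.45% and 40.3% in the same order, and cluster 5 made up 20.4%, 54.0%, 32.6% and 20.8%. What these shifts add to the changes of the gate was not tested. Within cluster 10 Ctsw rose in both tumour types (0.76 ± 0.16, adjusted p = 0.0015, and 0.96 ± 0.19, adjusted p = 0.0025), and Ctsa rose in control tumours (0.90 ± 0.17, adjusted p = 0.00039). Ctsa was not called within it in B2m-null tumours, where the fit held 3 B2m-null isotype mice. The B2m-null isotype mice had as few as 20 CD8 T cells, and without B2m-null CD40 pool 2 both B2m-null calls were lost (0), as was that on Ctsa without B2m-null isotype pool 2 and that on Ctsw without B2m-null isotype pool 1. In control tumours Ctsa and Ctsw were called in every such fit, and the count fell from 5 to 2 without control isotype pool 1 or control CD40 mouse 2 and to 3 without control CD40 mouse 1 or the first control CD40 lane. Ctss was also lost without control isotype pool 2. With the pool as the unit Ctsb, Ctsd and Ctss were lost in control tumours, as were both B2m-null calls. Under CD40 antibody 1 gene was called between tumour types without B2m-null CD40 pool 2.

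**Figure D5:**
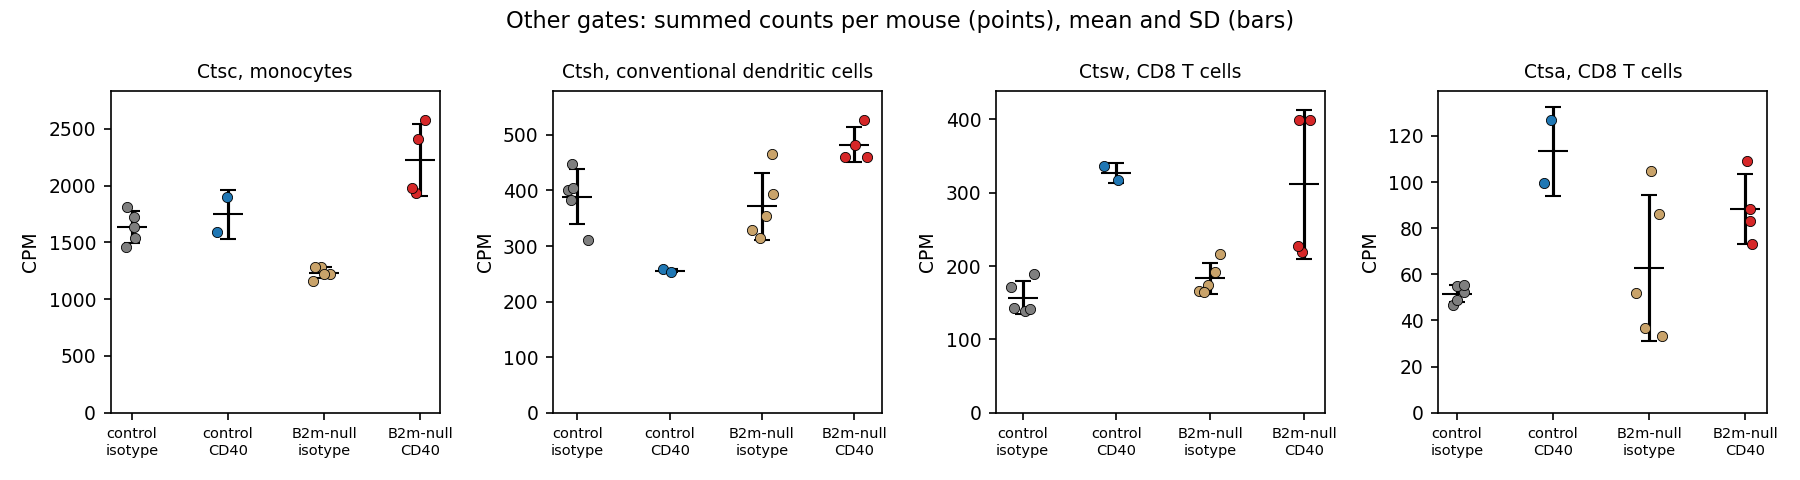
Levels in CPM of Ctsc in monocytes, Ctsh in conventional dendritic cells, and Ctsw and Ctsa in CD8 T cells, 1 point per mouse, with the mean as a horizontal line and the SD as bars (n = 5, 2, 5 and 4). Monocyte Ctsc runs from 1933 to 2579 CPM in the 4 B2m-null CD40 mice and from 1163 to 1286 CPM in the 5 B2m-null isotype mice.

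Melanoma cells passed the CD45 beads in small numbers, 46 to 313 per lane, so their values are those of carried-over cells and no test was made. Of the 8 mice with at least 20 such cells, none was a B2m-null CD40 mouse. Ctsd stood at 563, 564, 683 and 560.2 CPM in control isotype, 757 and 887 CPM in control CD40 and 1070.3 and 803 CPM in B2m-null isotype. Ctsz ran from 408 to 493 CPM over the 8 mice, with the 4 control isotype mice (465 to 493 CPM) above the 2 control CD40 mice (408 to 438 CPM) and the 2 B2m-null isotype mice (417 to 427 CPM). These 2 B2m-null isotype mice had 21 and 46 melanoma cells, both in pool 1, whose lane held 313. Values of Ctsd and Ctsz over all melanoma cells of a lane are not given here. Over all melanoma cells of a lane, Ctss ran from 42.7 to 109 CPM in the 4 B2m-null lanes and from 145 to 271 CPM in the 4 control lanes, while the hashtagged cells of the 2 B2m-null isotype mice stood at 349.8 and 175 CPM. C1qa in these cells was a median of 7.11% of its macrophage level in the same mice, and the part of macrophage RNA in these values was not tested.

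The other genes of the lysosome were counted in lists. Of 25 genes of the lysosomal membrane and proton pump, 16 rose and 1 fell in macrophages of control tumours under CD40 antibody (median log2 fold change 0.42), where 22.4% of all genes passed in either direction. In B2m-null tumours 6 rose and 5 fell (median -0.07), against 33.5% of all genes. Atp6v0b, a pump subunit, and Mcoln1, a lysosomal ion channel, rose in control tumours (0.68 ± 0.09 and 0.66 ± 0.13), and Atp6v0a1 fell in both (-0.71 ± 0.16 and -1.09 ± 0.13). The difference of effects passed as negative for 11 of the 25 and as positive for 0, against 17.8% of all genes in either direction, as for the membrane proteins Laptm5 (-0.83 ± 0.18), Scarb2 (-0.74 ± 0.15) and Lamp1 (-0.69 ± 0.15), the sign that Ctsd and Ctsb had. In monocytes 5 rose and 0 fell in control tumours, against 10.9% of all genes, and 7 rose and 3 fell in B2m-null tumours, against 32.6%. With library totals the list's balance turned in B2m-null tumours, to 4 higher and 11 lower in macrophages and 5 higher and 9 lower in monocytes. In control macrophages 10 rose and 1 fell, and 12 differences of effect were negative and 0 positive.

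Of 35 lysosomal hydrolases and activators, 8 rose and 0 fell in macrophages of control tumours (median 0.25, against 22.4% of all genes called), and 6 rose and 5 fell in B2m-null tumours (median -0.02, against 33.5%). The shares called were near those over all genes. With library totals 3 rose and 1 fell in control tumours, and 3 rose and 14 fell in B2m-null tumours. Psap, the saposin precursor, and Sgsh, a sulfatase, rose in control tumours (1.04 ± 0.14 and 1.33 ± 0.23) with negative differences of effect (-0.95 ± 0.18 and -1.53 ± 0.31). Ifi30, the lysosomal thiol reductase of antigen processing, rose in B2m-null tumours (1.05 ± 0.10) with a positive difference (0.90 ± 0.16), the sign that Ctsc showed, and Lgmn, which processes several cathepsin precursors, fell (-0.43 ± 0.12). Ifi30 was also lower in B2m-null than control macrophages under isotype (-0.55 ± 0.10). In monocytes 4 of the 35 rose and 0 fell in control tumours, and 10 rose and 2 fell in B2m-null tumours, again near the 10.9% and 32.6% over all genes, with Ifi30 among the 10 (1.22 ± 0.12). With library totals 4 rose and 7 fell in B2m-null monocytes.

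Cystatins and stefins, the protein inhibitors of cysteine cathepsins, were tested beside them. Of 5 tested in macrophages, 3 rose and 0 fell in each tumour type (medians 1.14 and 0.85), against 22.4% and 33.5% of all genes called. They were Cst7 (2.44 ± 0.34), Cst6 (1.14 ± 0.37) and Cstb (0.69 ± 0.12) in control tumours, and Cst7 (1.90 ± 0.33), Cstb (0.85 ± 0.10) and Cst3 (0.35 ± 0.09) in B2m-null tumours. With library totals 2 rose in each, without Cst6 and Cst3. In monocytes of B2m-null tumours 2 of 3 rose, against 32.6% of all genes called, Cst7 (2.47 ± 0.58) and Cstb (1.20 ± 0.12). Igf2r, the mannose 6-phosphate receptor that sorts cathepsins, rose in macrophages (0.85 ± 0.15 and 0.67 ± 0.13) and in monocytes (1.39 ± 0.23 and 1.08 ± 0.20) of both tumour types. It was the only gene called in control macrophages among 10 sorting genes and MiT/TFE factors, against 22.4% of all genes. In B2m-null macrophages 4 of the 10 were called, against 33.5%. Beside Igf2r, Tfeb rose (0.37 ± 0.13) while Mitf and Sort1 fell (-0.36 ± 0.10 and -1.09 ± 0.23). With library totals Tfeb was not called, and 2 of the 10 fell in control macrophages.

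Granule serine proteases, which Ctsc activates, and perforin were followed in CD8 T cells. Of 10 genes, 2 rose and 4 fell in control tumours under CD40 antibody (median -1.70), where 39.6% of all genes passed, with Gzmm at 3.07 ± 0.58, Gzmc at -2.73 ± 0.73, Gzme at -2.22 ± 0.72 and Prf1 at -1.63 ± 0.35. In B2m-null tumours 2 rose and 0 fell (median 0.67), where 10.9% of all genes passed, Gzmm (3.17 ± 0.67) and Gzma (2.09 ± 0.60). With library totals Gzma was not called there (adjusted p = 0.053 in edgeR). Cluster 10, which Gzmf and Gzmb help to lead, made up 73.9% of the gate in control isotype and 19% in control CD40, and fits within it were added after seeing the data. Within it 1 of the 10 genes rose, Gzmm (2.78 ± 0.79, adjusted p = 0.011), and 1 fell, Prf1 (-0.83 ± 0.27, adjusted p = 0.043), with a median of -0.39. In B2m-null tumours, with 3 B2m-null isotype mice in the fit, 0 of the 10 were called within it by edgeR, 2 at an unadjusted p under 0.05 (median 0.40). The shares of all genes called within cluster 10 are not given here. Ctsc itself was not called in this gate in either tumour type (-0.18 ± 0.18, adjusted p = 0.43, and 0.30 ± 0.19, adjusted p = 0.34). Its mean level in B2m-null tumours was 139.6 ± 39.8 CPM (SD, n = 5) under isotype and 123 ± 13.9 CPM (SD, n = 4) under CD40 antibody, a direction opposite to that of the fitted value, which was 0.10 ± 0.20 with library totals. Of 13 other cathepsin genes at most 2 passed the low-count filter in any of the 4 gates.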

How the data were processed

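Single-cell RNA of CD45-enriched tumour cells was read as unnormalized UMI counts per gene and barcode, as deposited by the authors, with hashtag counts beside them. Per the submitters' processing notes, bcl2fastq 2.20.0.422, Cell Ranger 3.0.0 and mm10 were used, and the counting's strand setting is not given in the sources used here. Barcodes with fewer than 200 genes or over 10% mitochondrial counts were dropped. A cell was given to a mouse by a mixture model of hashtag counts (at least 20 counts, posterior 0.9), and cells with a further hashtag (z of 2.5) were removed as doublets. Of 93694 cells clustered (scanpy 1.11.5, Python 3.11.15), clusters were named from marker lists.

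Counts were summed per mouse and gate with at least 20 cells (16 mice), and tested with edgeR 4.0.16 in R 4.3.3 (quasi-likelihood test, TMM scaling, filterByExpr), with all 4 groups in 1 fit. P-values were adjusted by Benjamini and Hochberg over all genes tested, with a threshold of 0.05, and errors of log2 fold changes are standard errors. Nothing beyond the hashtag gives the mice of a pool separate cultures or days, so p-values measure the spread between these mice. That spread mixes differences within and between pools. Both control CD40 mice came from 1 pool, so no spread between pools of that group enters. On simulated data for the B2m-null CD40 comparison, 81% of 2-fold and 95% of 4-fold changes were recovered in macrophages (12186 genes), 72% and 98% in monocytes (9672 genes), 57% and 88% in dendritic cells (9734 genes) and 47% and 95% in CD8 T cells (9369 genes). False calls made up 6.38%, 5.03%, 2.69% and 6.58% of the calls in the same order. The simulated mice shared no pool spread, 200 genes were changed, and no change in control CD40 was simulated, so recovery under those conditions is not known. All 10 cathepsins were reported in every gate, and from each gene list at most the 4 called genes with the largest absolute log2 fold change. The 3 most similar genes per cathepsin were ranked by correlation of log2(CPM + 1) among genes reaching 10 CPM, and the first is named. The cathepsins and the gene lists were chosen with earlier results of these data known. Alternatives were DESeq2 1.42.0, RLE size factors, no low-count filter, cells of at least 1000 UMIs, at least 50 cells per mouse, the pool as the unit (all its gated cells, with or without a hashtag), removal of mixed barcodes, single clusters, a replicate block and leaving out each pool, lane or control CD40 mouse. Library totals without TMM factors, and fits within clusters outside the macrophages, were chosen after seeing the data. CPM values are scaled by library totals, fitted fold changes by TMM.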

Additional observations from a re-analysis of the deposited data

Results flagged for a closer look

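Among 119 groups of 4 or 5 mice (1 gene in 1 gate), single mice stood far from the rest of their group in 5, and chance alone flags about 5 per 100 groups. In conventional dendritic cells of control isotype, Ctsa was 55.4 CPM in 1 mouse against 126 to 152 CPM in the others, and Ctsk was 11.1 CPM against 1.93 to 4.58 CPM. In macrophages of control isotype, Ctsk was 79.1 CPM in 1 mouse against 53.2 to 60.0 CPM, and in macrophages of B2m-null isotype Ctsh was 639.8 CPM against 457 to 499.9 CPM. In CD8 T cells of B2m-null isotype, Ctsb was 384 CPM in 1 mouse against 197 to 249 CPM. That mouse had 22 CD8 T cells with 28612 UMIs, so its value rests on few counts.

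The effect of CD40 antibody differed between B2m-null and control tumours by edgeR's interaction term in 7 cases (log2, B2m-null effect minus control effect). In macrophages the difference was 0.58 for Ctsc, -1.07 for Ctsd and -0.58 for Ctsb. In monocytes it was 0.87 for Ctsc and 0.66 for Ctsh. In conventional dendritic cells it was 1.04 for Ctsh and 0.66 for Ctsz. Each of these uses the 1 control CD40 pool, and each was lost with the pool as the unit.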

How the results depend on the processing

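Counts of cathepsins called are given for 5 comparisons per gate, in the order CD40 effect in control tumours, CD40 effect in B2m-null tumours, B2m-null against control under isotype, the same under CD40 antibody, and the difference of effects. Leaving out 1 pool, lane or mouse gave ranges of 3 to 6, 2 to 6, 0 to 2, 0 to 4 and 1 to 3 in macrophages, of 0 to 4, 4 to 5, 0 to 2, 0 to 3 and 2 to 5 in monocytes, of 0 to 2, 0 to 3, 0 to 0, 0 to 2 and 0 to 2 in dendritic cells, and of 2 to 6, 0 to 3, 0 to 0, 0 to 1 and 0 to 0 in CD8 T cells. When pools replaced mice as units (7 pools, with control CD40 a single pool summed over its 2 lanes and assumed to vary like the others), the counts were 3, 3, 0, 1 and 1 in macrophages (the last 2 were Ctsk, which replaced all 4 and all 3 of the reported genes), the last 3 were 0, 0 and 0 in monocytes, all 5 were 2, 2, 0, 0 and 0 in dendritic cells (Ctsl and Ctsw in both tumour types, with Ctsh and Ctsz lost), and the first 2 were 2 and 0 in CD8 T cells. Without the low-count filter the last 3 were 2, 2 and 4 in monocytes, the first was 2 in dendritic cells and the second was 4 in CD8 T cells. DESeq2 gave 2 and 4 for the last 2 in monocytes, 2 for the first in dendritic cells and 3 for the first in CD8 T cells. Without mixed barcodes dendritic cells had 0, 0 and 1 for the first and the last 2. Within macrophage cluster 2 the first was 0, and within cluster 3 the first 2 were 1 and 2. Fits within single clusters of other gates were chosen after seeing the data: 1 and 2 within monocyte cluster 1, 2 for the second within monocyte cluster 9, 2 for the first within cDC2 and 1 for the second within CD8 T cell cluster 10. With library totals in place of TMM, also chosen after seeing the data, dendritic cells had 2 for the first, and the other counts lay within 1.5 times, though other genes were called in macrophages. The cause was not tested for any of these. Shares of all genes called are not set beside the counts of this section.

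Of 47 calls, all 47 kept their sign in every alternative over the whole gate, 10 were called in every leave-out and 16 with the pool as the unit. Of these 16, 8 are among the 29 calls in comparisons that use control CD40, which had no replicate in that fit, and 8 among the other 18. The sign turned in 5 fold changes: Ctss in macrophage cluster 2 (-0.062 in B2m-null and -0.064 in control tumours), Ctsd in B2m-null (-0.50) and Ctss in control tumours (-0.25) within monocyte cluster 1, and Ctsw in CD8 T cells between tumour types under CD40 antibody without B2m-null CD40 pool 2 (-0.56, with 0.39 as the highest value over the leave-outs). The labels do not say that pool numbers pair the groups. Deviations of same-numbered pools correlated at 0.13 to 0.30 in the 4 gates between B2m-null CD40 and B2m-null isotype, the groups behind the B2m-null CD40 effect, and at -0.19 to 0.25 between the other groups. A replicate block gave 5 and 2 calls in macrophages, 5 and 1 in monocytes, 3 and 0 in dendritic cells and 3 and 0 in CD8 T cells for the B2m-null CD40 effect and the isotype comparison. The block added 1 call, for the B2m-null CD40 effect in CD8 T cells, and lost 0. Among the 4 gates tested, the dendritic and CD8 T cell gates had the lowest cell numbers in a mouse, 23 and 20.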
